A study of Mus musculus with 12 samples.

Results

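The MHC class I genes and the genes of peptide loading were examined as 10 named genes: the heavy chains H2-K1, H2-D1, H2-T23 and H2-Q7, the light chain B2m, the transporter genes Tap1 and Tap2, the editing chaperone gene Tapbp, the trimming peptidase gene Erap1 and the transcriptional activator gene Nlrc5. They were chosen by symbol and not by a cutoff on their measured values, though earlier results of these data were known. All 10 were found by Ensembl identifier among 57009 gene identifiers, and all 10 had enough counts to be tested, as had 14413 genes in all.

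MHC class I molecules display short peptides from inside the cell to CD8 T cells, and dendritic cells (DCs) use the same route to present captured antigen. Peptides cut by the proteasome are pumped into the endoplasmic reticulum by the Tap1-Tap2 transporter, trimmed by the peptidase Erap1 and fitted into a heavy chain paired with beta-2 microglobulin while tapasin, the product of Tapbp, holds the complex together. Nlrc5 is an activator that works at class I promoters, and interferons raise most of these genes in many cell types.

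The libraries were made from splenic DCs of C57BL/6 mice that carried B16 cells secreting Flt3 ligand, which makes DCs multiply, so every group shares this expansion. Lymphocytes and macrophages were depleted with beads, the DCs were cultured for 3 h and then sorted on CD11b and CD11c. The 4 groups of 3 libraries were DCs alone (DC only), DCs with lipopolysaccharide, a bacterial Toll-like receptor ligand (LPS), DCs with syngeneic B6 effector memory T cells (SynTem), and DCs with alloantigen-specific memory T cells of BALB/c derivation (AlloTem). The labels used here give no lipopolysaccharide dose and no age of the mice. They do not say whether replicates were separate cultures or animals. The p-values therefore cover the spread among the libraries alone, possibly in part a technical one. Transcripts of 4 Y-linked genes, given further on, were absent from DC only 1 and DC only 2 and present in DC only 3. DC only 3 therefore held RNA of other animals than DC only 1 and DC only 2. The deposited metadata also number the libraries by batch, 1 to 3; these numbers match the replicate numbers throughout, and what a batch stands for is not stated.

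Total counts ran from 13903574 to 21861156 per library, and the members held between 949 counts (Nlrc5, in the lowest library) and 55518 counts (H2-D1, in the highest), so counting error was small beside the spread between libraries. The DC markers Itgax (261 to 470 CPM, counts set on one library total after TMM adjustment), Flt3 (316 to 461 CPM) and Zbtb46 (102 to 224 CPM) were present in every library. Summed T cell markers, 23 genes, were at 69.5 to 110 CPM in DC only, 74.6 to 193 in LPS, 324 to 686 in SynTem and 156 to 313 in AlloTem. Nearly all nucleated cells, T cells included, transcribe class I genes. Fewer cells of a type and less RNA per cell cannot be told apart in these bulk libraries.

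H2-K1 and H2-D1 encode the classical heavy chains of this strain, and B2m encodes the light chain that every class I heavy chain in the list pairs with. H2-K1 lies at chr17:33996017-34000347 (minus strand) and H2-D1 at chr17:35262730-35267499 (plus strand), within the mouse MHC, while B2m lies at chr2:122147686-122153083 (GENCODE M21, GRCm38). H2-Q7, a nonclassical heavy chain gene of the Q region, lies at chr17:35439155-35443773, and H2-T23, which encodes the Qa-1 heavy chain read by NK cell receptors, at chr17:36029773-36032855 on the minus strand. Because H2-K1, H2-D1, B2m and H2-Q7 moved together from library to library, their promoters were compared. The RefSeq promoter table (GRCm38.p6) held 8 of the 10 members, and Tap2 and Nlrc5 had no entry. The stretches shown lie upstream of the annotated first exons, at chr17:34000359-34000468 (minus strand) for H2-K1, chr2:122147529-122147638 for B2m and chr17:35439010-35439119 for H2-Q7, each read 5′ to 3′ in the gene's direction. Capitals mark matches, on either strand, to GGGGATTCCC (a kB motif), TTTCNNTT (the core of an interferon-response motif), TGACG (the core of the X2 box) and ATTGG (an inverted CCAAT box).
H2-K1: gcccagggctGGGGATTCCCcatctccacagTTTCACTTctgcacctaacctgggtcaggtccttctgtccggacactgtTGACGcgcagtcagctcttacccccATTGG
B2m: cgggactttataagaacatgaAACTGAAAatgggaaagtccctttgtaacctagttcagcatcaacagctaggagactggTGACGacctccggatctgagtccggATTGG
H2-Q7: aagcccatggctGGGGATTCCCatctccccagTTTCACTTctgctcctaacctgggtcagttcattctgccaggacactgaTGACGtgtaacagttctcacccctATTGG

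In H2-K1 and H2-Q7 the kB motif comes first, then the interferon-response core, then TGACG and ATTGG. B2m has the last 3 in the same order, with the interferon-response core on the other strand. TGACG was followed by ATTGG after 20 bases in H2-K1, H2-D1 and B2m and after 19 bases in H2-Q7. A gap of 15 to 30 bases between the pair was found in 4 of the 8 member promoters and in 0.522% of 27018 promoters of the same length. The motifs were chosen after the sequences were seen, and the range includes the gaps found. That share is therefore no test of the 4 matches. The string GGGGATTCCC was read from the promoters of H2-K1, H2-D1 and H2-Q7, so its presence in these 3 was fixed by its choice. It was in 0.0814% of all promoters, and that share is no test of the 3 matches. Heavy chain genes are near copies of each other, so their matches, to this string or to the pair, are not independent. The interferon-response core TTTCNNTT was in 5 of the 8 member promoters (21.6% of all), H2-T23 being the fifth. The promoter of H2-T23 held neither GGGGATTCCC nor the pair of TGACG and ATTGG. None of the motifs overlapped another in the stretches shown. TGACG alone was in 17.9% and ATTGG alone in 34.5% of all promoters. A match is a string of letters and says nothing of whether a factor was bound.

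**Figure D1:**
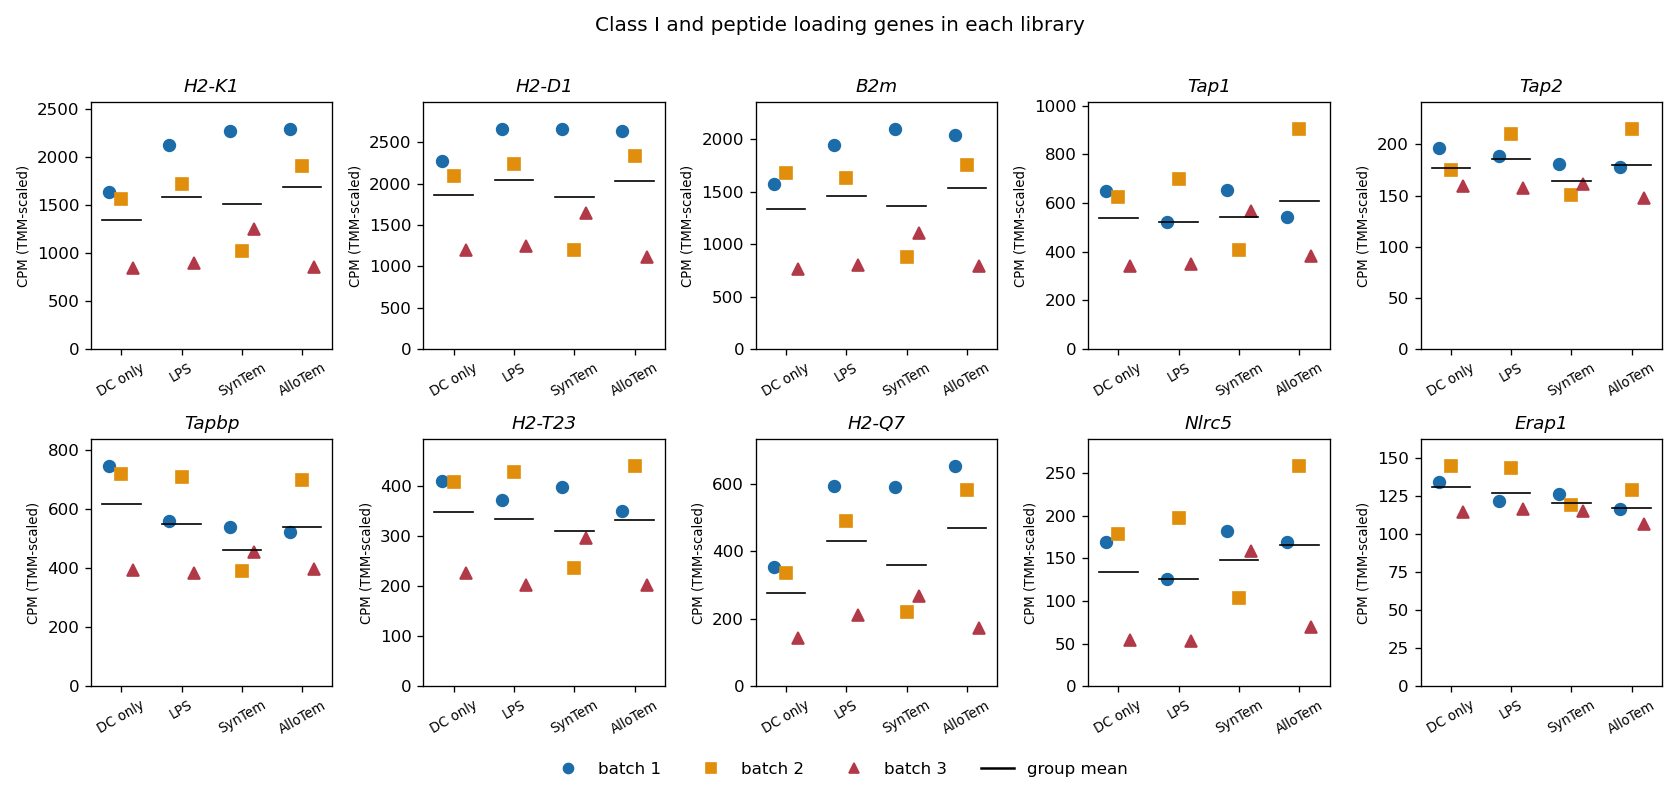
Level of each of the 10 genes in every library (y axis, CPM on a TMM-adjusted library total, from 0) by culture condition (x axis), with batch 1 as circles, batch 2 as squares, batch 3 as triangles and the mean of 3 libraries as a line. The 4 conditions overlap for every gene, while the batch 3 libraries of DC only, LPS and AlloTem and the batch 2 library of SynTem lie low for all but Erap1.

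H2-K1 stood at 1635, 1561 and 847 CPM in DC only libraries 1 to 3, 2124, 1723 and 900 CPM in LPS, 2272, 1027 and 1246 CPM in SynTem, and 2298, 1906 and 853 CPM in AlloTem. The low libraries were number 3 of DC only, LPS and AlloTem and number 2 of SynTem, and every group overlapped every other. B2m was low in the same libraries, at 1568, 1679 and 765 CPM in DC only, 1948, 1627 and 803 CPM in LPS, 2100, 880 and 1109 CPM in SynTem, and 2044, 1755 and 794 CPM in AlloTem. H2-D1 ranged from 1108 CPM in AlloTem 3 to 2667 CPM in SynTem 1, a span of 2.41-fold. H2-K1 and B2m kept nearly the same proportion in every library, with a ratio of their CPM between 0.929 (DC only 2) and 1.17 (SynTem 2).

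H2-Q7 spread more widely than the classical chains. It was at 352, 335 and 142 CPM in DC only, 592, 491 and 210 CPM in LPS, 591, 219 and 267 CPM in SynTem, and 652, 582 and 173 CPM in AlloTem, a span of 4.59-fold between DC only 3 and AlloTem 1. Libraries 1 and 2 of LPS and AlloTem and library 1 of SynTem lay above all 3 DC only libraries, and the remaining libraries of those groups lay within the DC only range. Relative to H2-K1, H2-Q7 ranged from 0.168 in DC only 3 to 0.305 in AlloTem 2. H2-T23 ranged from 203 CPM in LPS 3 to 440 CPM in AlloTem 2. Heavy chain genes are near copies of each other: of the distinct 50-base words of their transcripts, the read length here, 26.45% in H2-Q7, 14.49% in H2-T23, 12.77% in H2-D1 and 9.63% in H2-K1 also occur in other genes, H2-Q10 and H2-Q5 leading for H2-Q7. How the authors' counting treated such reads is not given in the sources used here, so the levels of these 4 genes are uncertain to that extent; B2m had 0 shared words.

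Tap1 and Tap2 (chr17:34187553-34197225 and chr17:34203527-34216321) encode the paired subunits of the peptide transporter. Tap1 was at 648, 625 and 341 CPM in DC only, 522, 698 and 351 CPM in LPS, 654, 405 and 569 CPM in SynTem, and 542, 905 and 382 CPM in AlloTem. Its highest library was AlloTem 2 and not a batch 1 library, which sets it apart from H2-K1 and B2m in order. The ratio of Tap1 to B2m ran from 0.265 in AlloTem 1 and 0.268 in LPS 1 to 0.513 in SynTem 3 and 0.516 in AlloTem 2. Tap2 moved little, between 148 CPM in AlloTem 3 and 215 CPM in AlloTem 2, a span of 1.46-fold, so that the ratio of Tap1 to Tap2 reached 4.20 in AlloTem 2 and was 2.14 in DC only 3. Ratios of CPM between genes are not corrected for length and are compared here only between libraries.

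Tapbp (chr17:33915899-33929292) was at 746, 717 and 393 CPM in DC only, 561, 708 and 383 CPM in LPS, 538, 392 and 456 CPM in SynTem, and 524, 698 and 397 CPM in AlloTem. DC only held the highest 2 libraries, yet its batch 3 library was as low as those of the other groups. Erap1 (chr13:74639568-74693201), which trims peptides to a length that class I molecules hold, was the flattest member, at 134, 145 and 115 CPM in DC only, 122, 143 and 117 CPM in LPS, 127, 119 and 116 CPM in SynTem, and 117, 129 and 107 CPM in AlloTem. Antisense or overlapping genes cover 24.92% of the exon bases of Tapbp (Gm19412), 14.1% of Tap2 (Gm15821) and 11.46% of Erap1 (Cast), and without a stated strand setting their reads cannot be told apart.

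Nlrc5 (chr8:94434356-94527272), the activator of this gene set, had the widest span, 4.86-fold. It was at 170, 178 and 54.4 CPM in DC only, 126, 198 and 53.2 CPM in LPS, 183, 104 and 159 CPM in SynTem, and 169, 258 and 69.6 CPM in AlloTem. The batch 3 libraries of DC only, LPS and AlloTem were the lowest 3, while SynTem 3 lay among the batch 1 and batch 2 libraries.

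Per kilobase of annotated exon, B2m was the most abundant member, with a median of 1857 CPM per kb over the 12 libraries. H2-D1 (841), H2-K1 (544), Tapbp (146), H2-T23 (125), Tap1 (101), H2-Q7 (80.5), Tap2 (46.6), Nlrc5 (19.3) and Erap1 (16.6 CPM per kb) followed. The ranges of neighbours in that order overlapped, except that the lowest H2-K1 value, 288 CPM per kb, lay above the highest Tapbp value, 206, and the lowest Tap2 value, 39.1, above the highest Nlrc5 value, 30.4.

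AlloTem and SynTem were compared to ask how DCs differ after meeting alloreactive rather than syngeneic memory T cells. No class I or loading gene passed the test: 0 of 10 members were called at an adjusted p under 0.05 by edgeR's quasi-likelihood test, against 24 of 14413 genes (0.167%; 78 genes with batch as a block), and 0 of 10 reached an unadjusted p under 0.05, against 9.58% of genes. H2-Q7 averaged 469 ± 259 CPM in AlloTem and 359 ± 202 CPM in SynTem (SD, n = 3 each), a log2 difference of 0.39 ± 0.58 (SE, edgeR adjusted p = 0.886). H2-K1 averaged 1686 ± 747 and 1515 ± 665 CPM (SD, n = 3 each), with a log2 difference of 0.15 ± 0.45 (SE, edgeR adjusted p = 0.951). Nlrc5 gave 0.16 ± 0.59 and Tapbp 0.22 ± 0.29 on the log2 scale (SE), with edgeR adjusted p-values of 0.961 and 0.859. The log2 differences of the remaining members were 0.14 for H2-D1, 0.17 for B2m and Tap1, 0.13 for Tap2, 0.093 for H2-T23 and -0.036 for Erap1.

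The difference depended on which libraries were set side by side. Fold changes were above 0 for 9 of 10 members (48.5% of genes), with a median of 0.16 against -0.01 for all genes. Within batch 2, AlloTem lay above SynTem for H2-Q7 by 1.41, Nlrc5 by 1.31, Tap1 by 1.16 and H2-K1 by 0.89 on the log2 scale. Within batch 3 AlloTem lay below SynTem by a log2 difference of -0.62 for H2-Q7, -1.19 for Nlrc5, -0.57 for Tap1 and -0.55 for H2-K1, and within batch 1 those of the 4 genes lay between -0.27 and 0.14. No member was higher in 3 of 3 batches (18.2% of genes were) or lower in all of them (16% of genes), and for 0 of 10 were the groups free of overlap (13% of genes). With the batch as a block Nlrc5 turned to -0.16, and with the summed Y-linked transcripts described further on as a covariate 8 of the 9 rises turned below 0, down to -0.57 for Nlrc5 (edgeR adjusted p = 0.299).

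**Figure D2:**
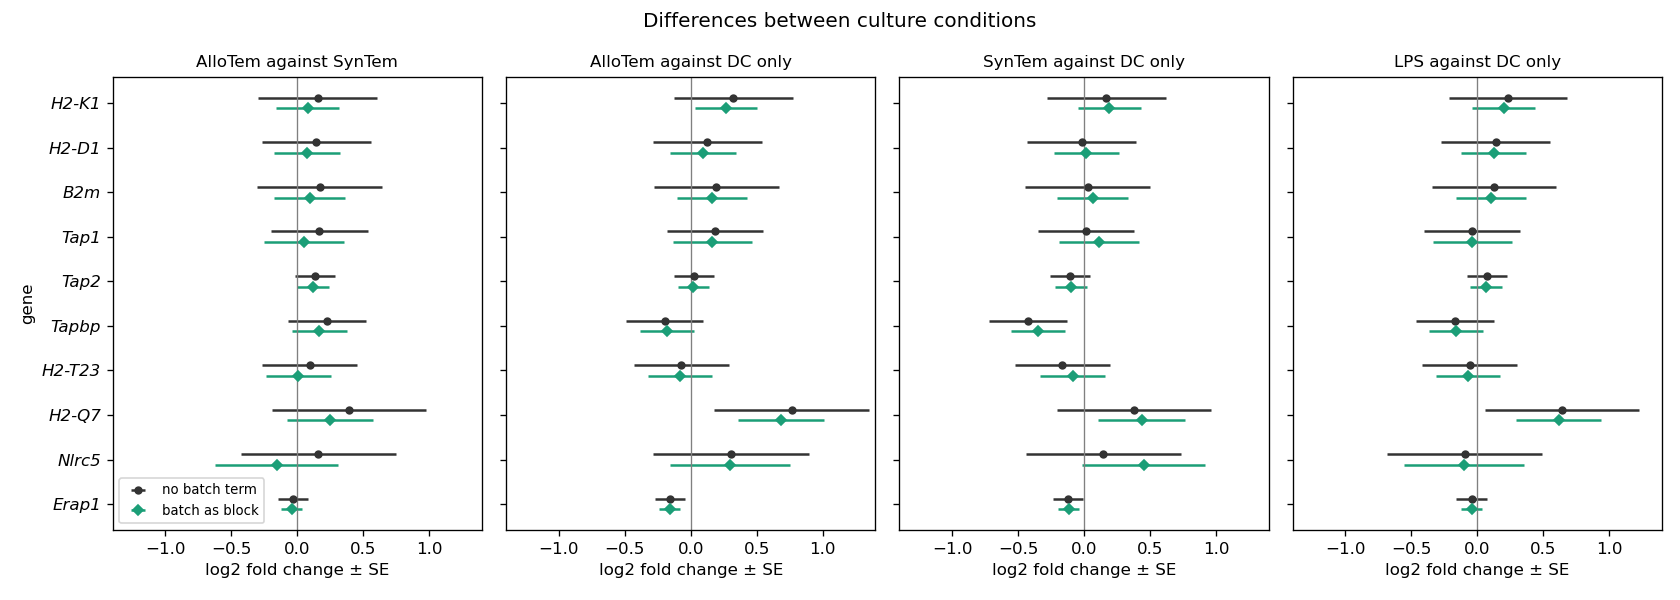
Log2 fold change of each gene (x axis, bars are ± 1 SE) in the 4 comparisons, from the edgeR fit without a batch term (circles) and with batch as a block (diamonds). Most intervals of 1 SE cross 0. H2-Q7 in AlloTem against DC only and in LPS against DC only lies farthest from it, at 0.76 and 0.64 without the batch term. With batch as a block these are 0.68 ± 0.32 and 0.62 ± 0.32, with intervals that do not reach 0 (edgeR adjusted p = 0.352 and 0.874).

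AlloTem, SynTem and LPS were each compared with DC only, so these 3 comparisons share the same control libraries. In AlloTem 0 of 10 members were called, against 253 genes (1.76%; 420 with batch as a block), 0 reached an unadjusted p under 0.05, against 12.7%, and the groups overlapped for all 10, being free of overlap for 17.2% of genes. Fold changes were above 0 for 7 of 10 members (50.2% of genes). H2-Q7, at 469 ± 259 against 276 ± 117 CPM (SD, n = 3 each), had a log2 difference of 0.76 ± 0.59 (SE, edgeR adjusted p = 0.687). It was higher in each batch, by 0.89, 0.80 and 0.29 on the log2 scale in batches 1 to 3. With batch as a block the difference was 0.68 ± 0.32 (SE, edgeR adjusted p = 0.352). H2-K1 and B2m were also higher in 3 of 3 batches, as were 20% of all genes, though by only 0.01 and 0.05 in batch 3. Erap1 was lower in 3 of 3 batches (20.3% of genes), from 131 ± 15.3 to 118 ± 11.5 CPM (SD, n = 3 each), a log2 difference of -0.16 ± 0.11 (SE, edgeR adjusted p = 0.662). The log2 differences of the remaining members were 0.32 for H2-K1, 0.13 for H2-D1, 0.20 for B2m, 0.18 for Tap1, 0.028 for Tap2, -0.20 for Tapbp, -0.071 for H2-T23 and 0.30 for Nlrc5.

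With syngeneic T cells 0 of 10 members were called, against 13 genes (0.0902%; 21 with batch as a block), 0 reached an unadjusted p under 0.05, against 8.24%, and the groups overlapped for all 10, being free of overlap for 14.3% of genes. Members split evenly, 5 above and 5 below 0 (50.4% of genes above). Tapbp had the largest difference, at 462 ± 73.5 CPM in SynTem against 619 ± 196 CPM in DC only (SD, n = 3 each), with a log2 value of -0.42 ± 0.29 (SE, edgeR adjusted p = 0.772). The others were at 0.38 for H2-Q7, 0.17 for H2-K1, 0.15 for Nlrc5, 0.028 for B2m, 0.014 for Tap1, -0.016 for H2-D1, -0.10 for Tap2, -0.12 for Erap1 and -0.16 for H2-T23 on the log2 scale. No member went the same way in all 3 batches, as 13.9% of genes did upwards and 15.5% downwards. Within batch 2 SynTem lay below DC only in all of them, by -0.93 for B2m and -0.61 for H2-Q7, while within batch 3 it lay above, by 0.54 for B2m, 0.91 for H2-Q7 and 1.54 for Nlrc5. The sum of T cell markers was highest in SynTem 2, at 686 CPM, the SynTem library with the lowest H2-K1, B2m, H2-Q7 and Nlrc5. The part of T cell RNA in the member levels was not tested.

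With lipopolysaccharide 0 of 10 members were called and 0 of all 14413 genes (0%). At an unadjusted p under 0.05 there were 0 members and 531 genes (3.68%), and DESeq2 called 0 members and 9 genes. The groups overlapped for all 10 members (free of overlap for 9.87% of genes), and 5 of 10 fold changes were above 0 (50% of genes). H2-Q7 was at 431 ± 198 CPM against 276 ± 117 in DC only (SD, n = 3 each), a log2 difference of 0.64 ± 0.59 (SE, edgeR adjusted p = 0.999). This difference was even across batches, at 0.75, 0.55 and 0.56 on the log2 scale, and the block narrowed its error to 0.62 ± 0.32 (SE) with an unadjusted edgeR p of 0.0942 and an adjusted p of 0.874. H2-K1 and H2-D1 were higher in 3 of 3 batches too (15.6% of genes), by 0.09 and 0.05 in the batch where the gap was smallest. Tapbp was lower in 3 of 3 batches (14.9% of genes), by -0.41 in batch 1 and by -0.02 and -0.04 in batches 2 and 3. Nlrc5, at 126 ± 72.2 against 134 ± 69.2 CPM (SD, n = 3 each), differed by -0.09 ± 0.59 (SE, edgeR adjusted p = 0.999). Log2 differences of the remaining members were 0.23 for H2-K1, 0.14 for H2-D1, 0.13 for B2m, 0.071 for Tap2, -0.038 for Tap1, -0.17 for Tapbp, -0.058 for H2-T23 and -0.043 for Erap1. Differences of the size of these standard errors were not detectable with 3 libraries in a group.

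The largest differences among the members lay between batch 3 and batches 1 and 2, with SynTem 2 as an exception. All 10 were lower in batch 3 than in batch 1 in 4 of 4 groups, as were 20.3% of genes. Against batch 2 the order turned in SynTem. There library 3 lay above library 2 for every member but Erap1, as for H2-K1 at 1246 against 1027 CPM. All 10 had a batch 3 mean below that of batches 1 and 2 in the fit that held the group means (48.2% of genes). By fold, batches 1 and 2 exceeded batch 3 by 2.34 in H2-Q7, 2.19 in Nlrc5, 1.94 in B2m, 1.86 in H2-K1, 1.72 in H2-D1, 1.63 in H2-T23, 1.53 in Tap1, 1.47 in Tapbp, 1.19 in Tap2 and 1.14 in Erap1. The median log2 difference of the members, batch 3 minus the mean of batches 1 and 2, was -0.74, against 0.01 for all genes; their medians in the 4 comparisons of conditions were at most 0.16 in size.

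Whether these differences passed the threshold depended on the tool and on 1 library. By edgeR's quasi-likelihood test of the batch term 0 of 10 members and 0 genes (0%) were called, with the smallest member value at H2-K1 (log2 -0.90 ± 0.18 SE, edgeR adjusted p = 0.0686). At an unadjusted p under 0.05 the test held 8 of 10 members, all but Tap1 and Tap2, against 27.4% of genes. DESeq2 called 7 of 10 members, against 16.6% of its genes, and limma voom called 0. Without SynTem 2, edgeR called 10 of 10 members, against 17.7% of genes. Without DC only 2 and SynTem 2 together it called 10 of 10, against 20.9%. SynTem 2 is the exception to the batch pattern named above, so leaving it out removes the values that go against that pattern. The calls of both fits therefore cannot decide whether the members differ by batch.

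The same libraries stood apart in sex chromosome transcripts. Summed over 4 Y-linked genes (Ddx3y, Uty, Kdm5d, Eif2s3y), transcripts were at 204 to 220 CPM in the batch 3 libraries of DC only, LPS and AlloTem, at 175 CPM in SynTem 2 and at 131 CPM in SynTem 3, and at 0 to 10.3 CPM in the other 7. Xist, the X-inactivation transcript made in female cells, was at 138 to 146 CPM, 312 CPM and 455 CPM in those same libraries and at 610 to 1188 CPM in the 7. In 9 of 10 members the 3 batch 3 libraries of DC only, LPS and AlloTem lay below all 7, as in 7.88% of genes. SynTem 2 lay below the 7 as well in the same 9 members (6.81% of genes for all 4 libraries together), Erap1 being the exception. This grouping sets apart SynTem 2 and SynTem 3, which broke the batch order of the members, and the members rose and fell together. Those counts beside the shares are therefore no test. SynTem 3 lay between the 3 low libraries and the 7 in 7 of 10 members. The share of all genes with this order was not counted, and a relation to the Y-linked sum was not tested.

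**Figure D3:**
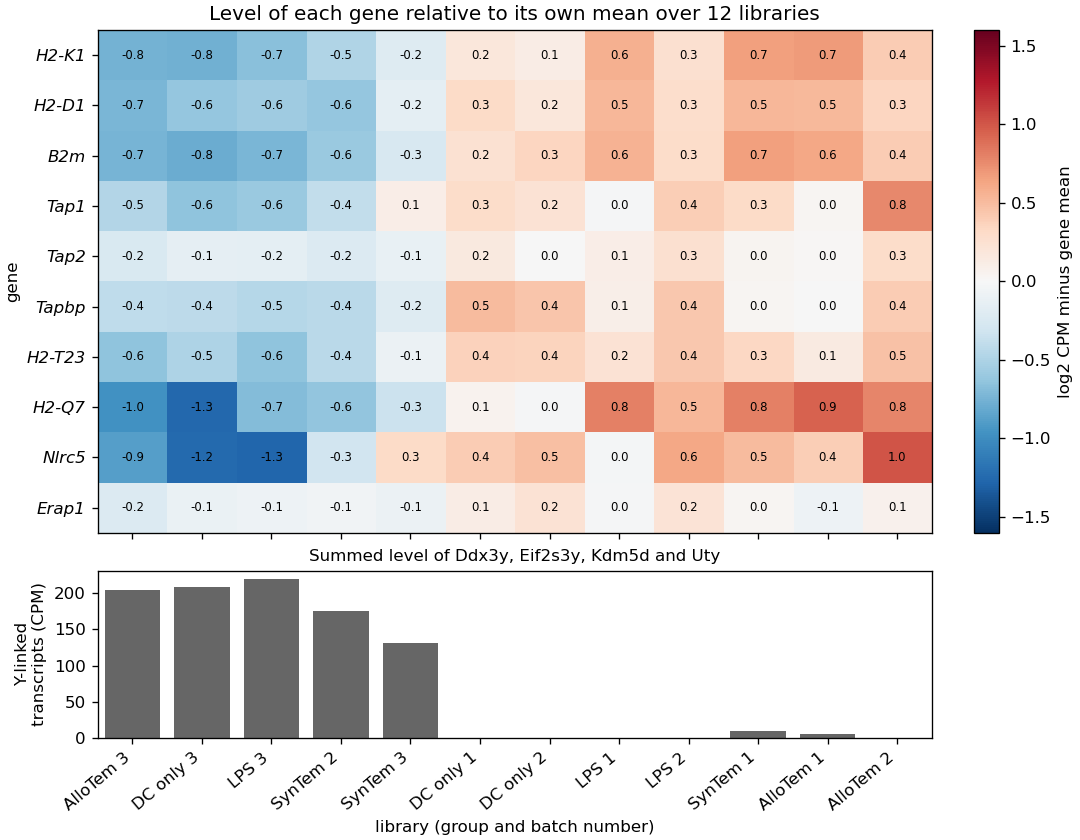
Upper panel, log2 CPM of each gene minus its own mean over the 12 libraries, coloured and printed per library, with the 5 libraries that hold the most Y-linked transcripts at the left. Lower panel, the summed Y-linked transcripts (bars, CPM, from 0): the 3 leftmost libraries, at 204 to 220 CPM, are also the lowest for most members, and SynTem 3, at 131 CPM, lies nearer the mean. A relation between the panels was not tested.

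Other values differed with the batch or the Y-linked sum as well. Summed DC markers, 12 genes, were at 1506 to 1870 CPM in the 4 batch 3 libraries and SynTem 2 and at 2145 to 2320 CPM in the other 7. By the edgeR batch term 0 of these 12 genes were called. At an unadjusted p under 0.05 there were 7 lower and 1 higher in batch 3, against 27.4% of all genes in either direction. Of the 12 genes 4 (Flt3, Clec9a, Siglech and Ccr9) had a batch 3 difference above 0, so the sum does not stand for each marker. Summed macrophage and monocyte markers were at 856 to 918 CPM in the batch 3 libraries of DC only, LPS and AlloTem and at 995 to 1777 CPM in the 7 libraries with little Y-linked RNA, with SynTem 2 at 882 and SynTem 3 at 1681 CPM. Summed NK cell markers were at 115 to 190 CPM in those 3 batch 3 libraries and at 278 to 948 CPM in the 7, with SynTem 2 and SynTem 3, at 358 and 359 CPM, inside the range of the 7. The deposited batch, the Y-linked transcripts and the cell makeup cannot be told apart in DC only, LPS and AlloTem, and the part of each in the member levels was not tested.

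The members rose and fell together over the 12 libraries, with Pearson r between 0.494 and 0.990 and a median of 0.822 over 45 pairs. After the group means were removed the range was 0.682 to 0.996, with a median of 0.888. H2-K1 and B2m had the highest value, 0.990, and H2-Q7 and Erap1 the lowest, 0.494. Tap1 was closer to Nlrc5 (r = 0.963) than to H2-K1 (r = 0.790), and H2-K1 was closer to H2-Q7 (r = 0.979) than to Nlrc5 (r = 0.832). These are descriptions over libraries that share batches and cell makeup, and they carry no test. H2-K1 also shares 3.67% of its 50-base words with H2-Q7.

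The genes whose levels most resembled the mean profile of the members, of 10077 genes with a symbol and at least 5 CPM, were Ifi27l2a (r = 0.981), Sp140 (0.981), Rnf114 (0.979), Xist (0.979), Tmbim6 (0.976), Ddx24 (0.976), Lgals3bp (0.973) and Usp18 (0.972), over 12 libraries and with no test. Ifi27l2a and Usp18 are interferon-stimulated genes, and Xist is the transcript that differed with the Y-linked sum. Ifi27l2a was at 16.3 to 24.7 CPM in DC only 3, LPS 3, AlloTem 3 and SynTem 2, at 65.0 CPM in SynTem 3 and at 104 to 147 CPM in the other 7. The genes nearest to Nlrc5 were Ddx58 (r = 0.981), Parp9 (0.979), Rtp4 (0.975) and Xist (0.973). Ddx58 encodes the RNA sensor RIG-I.

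Of 17 other class I heavy chains and relatives 13 were tested, and 0 were called in any of the 4 comparisons or by the batch term in edgeR. At an unadjusted p under 0.05 the batch term held 10 genes lower and 1 higher in batch 3, against 27.4% of all genes in either direction, and the median log2 difference of the list was -0.86. H2-M5 and Cd1d1, named after their values were seen, lay above 0, at 1.33 (edgeR adjusted p = 0.0909) and 0.12 (edgeR adjusted p = 0.300) on the log2 scale. H2-M2 had the smallest batch p (log2 -2.15, edgeR adjusted p = 0.0686), at levels of only 0.83 to 17.4 CPM. Between conditions the smallest p was that of Mr1, which presents vitamin metabolites to MAIT cells, at 1.64 on the log2 scale in SynTem against DC only (edgeR adjusted p = 0.413), with 2.55 to 3.94 CPM in SynTem as against 0.78 to 1.38 CPM in DC only.

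The lists of machinery around the members had batch medians nearer 0. In the folding and loading partners, 11 genes tested, 0 were called in any comparison or by batch, and the median batch difference was -0.06. Hspa5, the chaperone BiP, had the smallest batch p there, with -0.32 (edgeR adjusted p = 0.115). In the proteasome and peptidase list, 14 genes tested, 0 were called, and the median was -0.20. The immunoproteasome subunit Psmb8 had its smallest batch p (log2 -0.33, edgeR adjusted p = 0.0836), at 240 to 263 CPM in the batch 3 libraries and 298 to 349 CPM in the 7 libraries with little Y-linked RNA. Of the 10 genes in the MHC class II list, which includes the transactivator gene Ciita, 0 were called. The median was -0.24, with the smallest batch p at H2-DMb1 (log2 -0.51, edgeR adjusted p = 0.0807). At an unadjusted edgeR p under 0.05, Ciita was higher (log2 0.14) and H2-DMb1 lower in batch 3. The summed class II level was lowest in library 3 of LPS (15211 CPM, against 16969 and 21913 in LPS 1 and 2), of SynTem (10934, against 16692 and 13517) and of AlloTem (12125, against 14517 and 23472). In DC only it was highest in library 3, at 17443 CPM against 14183 and 13428 in DC only 1 and 2.

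Among the transcriptional regulators, 16 genes tested, 0 were called in any comparison or by batch. Irf2, an interferon regulatory factor, had the smallest batch p (log2 -0.26, edgeR adjusted p = 0.0733). In AlloTem against SynTem the smallest p belonged to Nfya, a subunit of the CCAAT-binding factor NF-Y, at 0.45 on the log2 scale (edgeR adjusted p = 0.230), with 190 to 245 CPM in AlloTem and 142 to 163 CPM in SynTem. Irf1, an interferon-induced activator of class I genes, was at 124 to 339 CPM in DC only, 358 to 843 CPM in SynTem and 507 to 1233 CPM in AlloTem. Its log2 difference in AlloTem against DC only was 1.68 ± 0.47 (SE, edgeR adjusted p = 0.135).

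Of the 10 tested genes of interferon receptors and signalling, 2 were called, both higher in AlloTem than in DC only. Socs3, a feedback inhibitor of cytokine receptor signalling, was at 56.1, 53.4 and 24.5 CPM in DC only and 1181, 913 and 493 CPM in AlloTem, a log2 difference of 4.27 ± 0.51 (SE, edgeR adjusted p = 0.00438). Socs1, an inhibitor of interferon signalling, was at 12.5, 9.60 and 2.16 CPM in DC only and 91.0, 242 and 93.1 CPM in AlloTem. The groups did not overlap for either gene. Socs1 rose by 4.14 ± 0.79 (SE, edgeR adjusted p = 0.0293), and its call was lost with batch as a block (edgeR adjusted p = 0.0644) and without each of 5 of the 6 libraries compared (adjusted p 0.0524 to 0.135). Ifnar1, a chain of the type I interferon receptor, was called lower in AlloTem than in DC only with the block alone (log2 -0.42, edgeR adjusted p = 0.0398).

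The 23 interferon-stimulated genes had 0 calls in any comparison or by batch, although their summed level varied widely, from 318 CPM in DC only 3 to 4173 CPM in SynTem 3. AlloTem 2, at 3269 CPM, was the second highest. SynTem 3 also stood apart in 7 summed neutrophil markers, at 857 CPM against 26.6 to 197 CPM in the other 11 libraries. Mpo, at 565 CPM, and Elane, at 131 CPM, were the largest parts of that sum. S100a8 was also highest in SynTem 3, at 49.1 CPM against 42.6 in LPS 1. S100a9, Ltf and Camp were higher in LPS 1 than in SynTem 3, and Ly6g was at only 0.12 CPM in SynTem 3. Of the 7 neutrophil genes 0 were called in any comparison, and all 7 had log2 differences above 0 in LPS, SynTem and AlloTem against DC only, with medians of 1.93, 2.62 and 2.01. The part of neutrophil RNA in the levels of SynTem 3 was not tested. In AlloTem 2 Tap1 and Nlrc5 had their highest levels, whereas in SynTem 3 Tap1 was at 569 and Nlrc5 at 159 CPM, within the range of the other libraries. H2-K1 was at 1246 CPM in SynTem 3, below the 7 libraries with little Y-linked RNA, whose summed interferon-stimulated genes were at 883 to 3269 CPM. Usp18, 1 of the 23 genes and named above for its likeness to the members, was at 18.9 CPM in SynTem 3, against 27.7 to 61.4 CPM in those 7. Over the 23 genes the median log2 difference of SynTem against DC only within batch 3 was 2.99. The part of interferon in the member levels was not tested. Gbp2, a guanylate-binding protein induced by interferon-gamma, had the smallest p of the list, with a log2 difference of 2.15 ± 0.41 in SynTem against DC only (SE, edgeR adjusted p = 0.105). The median batch difference of the list was -0.999.

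**Figure D4:**
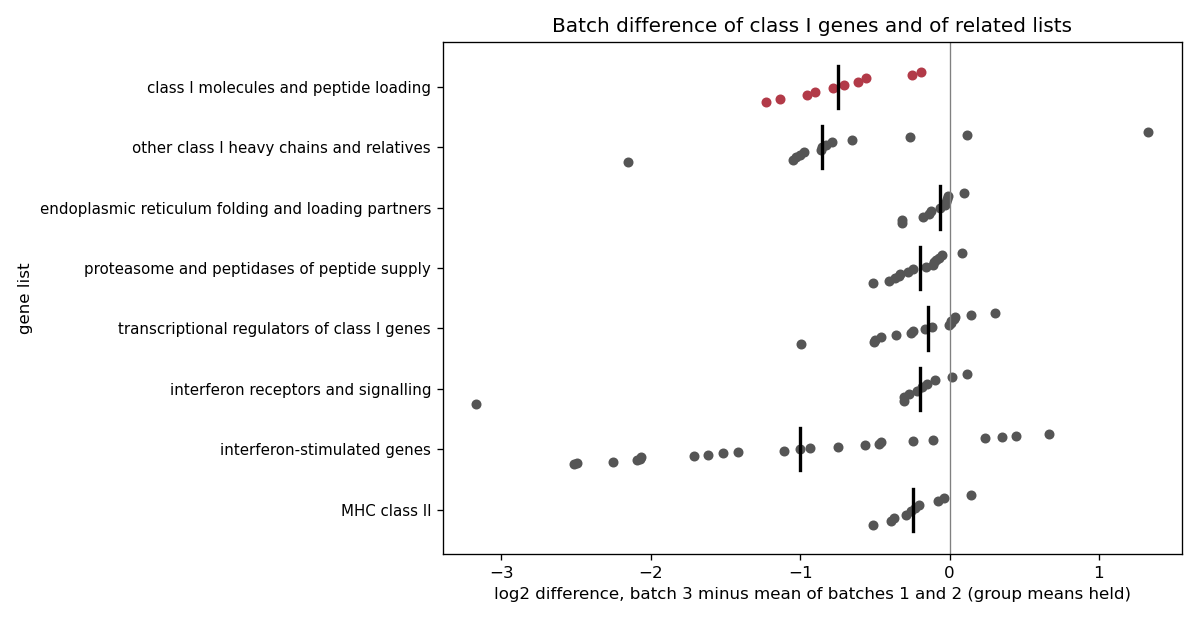
Log2 difference of batch 3 minus the mean of batches 1 and 2, with group means held, for each tested gene (points) of the class I members and of 7 related lists (y axis), with list medians as vertical bars. The members have a median of -0.74, the other class I heavy chains one of -0.86 and the interferon-stimulated genes one of -0.999. Folding partners (-0.06), regulators (-0.14), peptide supply (-0.20), interferon receptors and signalling (-0.20) and the class II list (-0.24) lie nearer 0.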

How the data were processed

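RNA was measured in 12 mouse DC libraries by single-end RNA sequencing with TruSeq kits, per the labels' protocols. The authors deposited raw counts per Ensembl gene, not normalized, and a table with a batch number per library. Per the submitters' processing notes the genome build is mm10. Aligner, counting tool, strand setting and annotation: not given in the sources used here. Gene symbols were taken from GENCODE M21 for 52028 identifiers.

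Genes passed filterByExpr (minimum count 10, minimum total 15). Counts were scaled by TMM and fitted with edgeR 4.0.16 under R 4.3.3 (robust quasi-likelihood, all 12 libraries, 1 mean for each group), with Benjamini-Hochberg adjustment over all 14413 genes and calls at an adjusted p under 0.05. The batch term was tested with the group means held. Standard errors are the log2 difference over the square root of F. Within-batch log ratios used an offset of 0.5 CPM. Alternatives were RLE scaling, DESeq2 1.42.0, limma 3.58.1 voom, no filter, a mean of 5 CPM, batch as a block, Y-linked transcripts as a covariate, only the 6 libraries compared and each library left out; leaving out DC only 2 and SynTem 2 in the comparisons of conditions, and leaving out batch 3, were added after seeing the data. The scripts were tested on simulated counts.

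The members, lists and motifs were chosen with earlier results of these data known, the motifs after the sequences were seen. All members are named in each comparison, and of each list the genes called or, with none called, that of smallest p in a comparison or by batch. Likeness is Pearson r of log2 CPM. The values, errors and calls of the 4 comparisons come from the fit without a batch term. Since the metadata name the shared number a batch, the numbers were taken to pair libraries, and the fit with batch as a block is given where it moved a call or a count. Deviations from group means had a median correlation of 0.247 over 18 same-number pairs (12 above 0.1, from -0.25 to 0.63) and -0.20 over 36 other pairs.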

Additional observations from a re-analysis of the deposited data

How the results depend on the processing

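In the 4 comparisons of conditions 0 of 10 members were called by every alternative run, among them the batch as a replicate block (0 of 10) and, added after seeing the data, the fits that left out batch 3 or both DC only 2 and SynTem 2 (also with the block). Of 560 member fold changes under alternatives, 481 kept their direction and 79 turned. Those of H2-Q7 and H2-K1 in AlloTem against DC only and of H2-Q7 in LPS against DC only kept it in 14 of 14. With Y-linked transcripts as a covariate, AlloTem against SynTem gave -0.24 for H2-K1, -0.22 for H2-D1, -0.24 for B2m, -0.21 for Tap1, -0.070 for Tapbp, -0.28 for H2-T23, -0.16 for H2-Q7 and -0.57 for Nlrc5 on the log2 scale. SynTem against DC only then gave 0.48 for H2-D1, 0.062 for Tap2, 0.0021 for Tapbp and 0.33 for H2-T23, and AlloTem against DC only 0.049 for H2-T23. With the replicate block Nlrc5 turned to -0.16 in AlloTem against SynTem and H2-D1 to 0.019 in SynTem against DC only, and the block changed no member call. H2-D1 also turned to 0.017 with the 5 CPM filter and to 0.0046 with only the 6 libraries in that comparison.

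Leaving out each library in turn, members that turned ran, in AlloTem against SynTem, from -0.13 to 0.57 for H2-K1, -0.092 to 0.52 for H2-D1, -0.096 to 0.63 for B2m, -0.24 to 0.42 for Tap1, -0.022 to 0.27 for Tap2, -0.010 to 0.41 for Tapbp, -0.17 to 0.36 for H2-T23, -0.32 to 0.53 for Nlrc5 and -0.12 to 0.040 for Erap1. In AlloTem against DC only they ran from -0.11 to 0.43 for H2-D1, -0.086 to 0.52 for B2m, -0.22 to 0.44 for Tap1, -0.12 to 0.16 for Tap2, -0.33 to 0.19 for H2-T23 and -0.17 to 0.68 for Nlrc5. In SynTem against DC only they ran from -0.24 to 0.38 for H2-K1, -0.38 to 0.21 for H2-D1, -0.43 to 0.26 for B2m, -0.23 to 0.18 for Tap1, -0.19 to 0.63 for H2-Q7 and -0.23 to 0.41 for Nlrc5. In LPS against DC only they ran from -0.040 to 0.51 for H2-K1, -0.095 to 0.40 for H2-D1, -0.16 to 0.42 for B2m, -0.30 to 0.18 for Tap1, -0.028 to 0.17 for Tap2, -0.41 to 0.034 for Tapbp, -0.29 to 0.20 for H2-T23, -0.58 to 0.27 for Nlrc5 and -0.14 to 0.035 for Erap1. The cause of these turns was not tested.

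Members called by the batch term were 0 with edgeR, RLE, either filter setting and limma voom, and 7 with DESeq2. They were 10 without DC only 2 and SynTem 2. Leaving out each library gave 0 to 10, the 10 being without SynTem 2. Fits without SynTem 2 lack the library that went against the batch pattern, so their calls cannot decide whether the members differ by batch. Without DC only 3 or LPS 3 the members at an unadjusted p under 0.05 fell from 8 to 4. Over all genes, calls in AlloTem against SynTem were 24, and 78 with the block, 314 with DESeq2, 41 with no filter, 39 with the covariate, 0 with 6 libraries, 3 to 47 with a library left out (3 without SynTem 2) and 2, 37 and 4 in the added fits. In AlloTem against DC only they were 253, and 420, 628, 598 and 98 with the block, DESeq2, the covariate and 6 libraries, 42 to 323 with a library left out (42 without DC only 1), and 16 and 36 without DC only 2 and SynTem 2 and without batch 3. In SynTem against DC only they were 13, and 21 with the block, 251 with DESeq2, 33 with no filter, 46 with the covariate, 2 with voom, 1 with 6 libraries, 0 to 56 with a library left out (56 without SynTem 1), and 1 and 0 in the same added fits. In LPS against DC only DESeq2 gave 9 and the fit without DC only 2 gave 1. The batch term gave 0, with 2234 by DESeq2, 179 with no filter, 3078 without DC only 2 and SynTem 2, and 0 to 2629 with a library left out. Socs3 kept its call in 14 of 14 alternatives and Socs1 in 6 of 14, the highest edgeR adjusted p of Socs1 being 0.135.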
